A study of Mus musculus with 6 samples.

Results

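Neutrophil granule and alarmin genes were read in right atria (RAs) of mice, as 9 genes given by symbol: S100a8, S100a9, Retnlg, Ngp, Camp, Ltf, Lcn2, Elane and Mpo. All 9 were found among the 54093 genes of the table, each on a single row. The RNA came from RA myocardium of wild-type C57BL/6 mice at postnatal day (P) 21, in 3 sham libraries and 3 volume overload (VO) libraries. VO was produced at P7 by an aortocaval fistula, a needle puncture that lets arterial blood enter the inferior vena cava, and the sham mice had the operation without the fistula. Mice of either sex were used, no mutant allele or drug was part of either group, and the labels do not say whether each library came from a separate mouse, so the p-values measure only the spread between these libraries. The groups were compared to see what VO changed in the RA during postnatal development.

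Neutrophils are made in the bone marrow and switch their granule genes on in waves. Promyelocytes fill the primary (azurophil) granules with elastase and myeloperoxidase, myelocytes and metamyelocytes fill the secondary (specific) granules with lactoferrin and antimicrobial proteins, and the mature cell in blood keeps mostly the transcripts of the last wave. S100a8 and S100a9 encode the subunits of calprotectin, a calcium- and zinc-binding complex that fills the neutrophil cytosol and acts as an alarmin, a signal of tissue damage, when it is released. In heart tissue these transcripts are known from circulating or infiltrating neutrophils and, for S100a8 and S100a9, also from monocytes.

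Levels are given as FPKM, the fragments of a gene divided by its length and by a library size that the authors used. Fragment counts were recovered from the FPKM and came to 15963082 to 17237903 per library. The library size behind the FPKM was not this total, being smaller in sham 1 and sham 3, nearly equal in sham 2 and larger in all 3 VO libraries. With that size, a gene 1 kilobase long had 15.6 to 18.1 fragments at an FPKM of 1. VO 1 was the highest library in all markers of macrophages, monocytes, B cells and T cells examined, and the fold changes of the tested genes among the 9 are therefore also given without it. As a check of the tissue, the atrial genes Myl7, Myl4, Nppa, Myh6, Bmp10, Sln and Tnnt2 summed to 15291 to 21251 FPKM in sham and 7445 to 14442 in VO, with VO 1 the lowest library. In such bulk RNA, fewer cells of a type and less RNA per cell cannot be told apart.

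The 9 genes lie at 6 places in the genome (build GRCm38). S100a8 (chr3:90668978-90670035) and S100a9 (chr3:90692632-90695721) are neighbours, 22.6 kilobases apart and read from opposite strands. Camp (chr9:109847379-109849617), Ngp (chr9:110419747-110423012) and Ltf (chr9:111019271-111042767) follow each other on chromosome 9 within 1169.7 kilobases from Camp to Ltf. Lcn2 (chr2:32384633-32388252), Retnlg (chr16:48872621-48874496), Elane (chr10:79886247-79888215) and Mpo (chr11:87793581-87804413) stand alone. Mpo is overlapped by the antisense gene Gm11505, which was listed at 0 FPKM. Whether the counting used strand is not given in the sources used here.

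The sequence just before the gene start is shown for the alarmin genes and for Ngp and Camp of the chromosome 9 group. These were chosen because the alarmin pair ranked the 6 libraries in the same order and Ngp and Camp share a granule and a chromosome. Ltf shares both with them and is not shown. Each sequence is taken from RefSeq (GRCm38.p6), written 5′ to 3′ on the strand of the gene and ended where the gene model begins. Capitals mark matches on either strand to TTNNGNAA, a core of the site of C/EBP factors that drive granule genes, and to GAGGAA, a core of the site of PU.1, and no match to one overlaps a match to the other. The regions are chr3:90668821-90668977 for S100a8 (plus strand), chr3:90695722-90695971 for S100a9 (minus strand), chr9:110419558-110419746 for Ngp (plus strand) and chr9:109849618-109849706 for Camp (minus strand).
S100a8: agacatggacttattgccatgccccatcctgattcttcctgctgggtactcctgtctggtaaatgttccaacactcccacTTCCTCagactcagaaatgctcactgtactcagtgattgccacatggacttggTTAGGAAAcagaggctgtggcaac
S100a9: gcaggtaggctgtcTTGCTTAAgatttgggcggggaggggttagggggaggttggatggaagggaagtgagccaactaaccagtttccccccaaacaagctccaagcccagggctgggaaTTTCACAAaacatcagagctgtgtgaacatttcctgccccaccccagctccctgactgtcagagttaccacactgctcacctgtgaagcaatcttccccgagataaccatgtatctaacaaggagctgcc
Ngp: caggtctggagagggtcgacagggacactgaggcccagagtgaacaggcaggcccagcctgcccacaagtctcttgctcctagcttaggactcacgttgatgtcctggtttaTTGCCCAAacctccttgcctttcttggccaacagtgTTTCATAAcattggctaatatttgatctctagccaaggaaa
Camp: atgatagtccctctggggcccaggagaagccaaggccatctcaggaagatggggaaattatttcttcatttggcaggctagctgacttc

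In the full RefSeq window of 300 bases, 250 before the start and 50 after it, TTNNGNAA was found for 6 of the 9 genes (Lcn2, Ltf, Ngp, Retnlg, S100a8 and S100a9) and in 40.7% of all 32851 promoters. GAGGAA was found for 5 of the 9 genes (Elane, Lcn2, Ltf, Mpo and S100a8) and in 28.3% of all promoters. TATAAA, the core of the TATA box, was found for S100a8 and S100a9 and in 13.6% of all promoters, in both genes outside the stretch printed above. These are matches of letters and nothing was read from them about binding.

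In no gene of the 9 was a difference between VO and sham called, and all 9 were highest in VO 1. Of the 9 genes, 4 passed the filter of a mean of 1 FPKM over the 6 libraries (S100a8, S100a9, Retnlg and Ngp) and entered the fit of 12627 genes with limma on log2(FPKM + 0.1). Of these, 0 had an adjusted p under 0.05 and 0 an unadjusted p under 0.05, while 0.00792% of all tested genes passed the first threshold and 12.0% the second. In 0 of the 9 genes were the groups free of overlap, against 21.2% of all tested genes. The log2 fold change of VO over sham was above 0 in 3 of the 4, where 48.5% of all tested genes were above 0. Retnlg and Ngp passed the filter only through VO, since their sham means were under 1 FPKM. Without VO 1, 1 of the 4 was above 0 (48.9% of all tested genes) and 0 had an unadjusted p under 0.05 (7.42%). In a fit of all 26706 genes above 0, with no filter, 0 of the 9 had an adjusted p under 0.05 (0.00374% of all) and 0 an unadjusted p under 0.05 (7.72%).

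S100a8, the smaller calprotectin subunit, had 4.54, 0.0836 and 0.796 FPKM in sham 1 to 3 and 18.9, 0.795 and 0.0876 in VO 1 to 3. VO 1 was far above all other libraries and sham 1 came next, while sham 2 and VO 3 rested on 1 fragment each, so the groups overlapped. The means with SD were 1.81 ± 2.39 FPKM for the 3 sham and 6.59 ± 10.7 for the 3 VO libraries, and the log2 fold change was 0.69 ± 1.80 (SE, adjusted p = 0.877 by limma). Without VO 1 the log2 fold change was -1.16.

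S100a9, the other subunit and the highest of the 9 genes, had 4.56, 0.111 and 2.94 FPKM in sham 1 to 3 and 35.3, 2.82 and 0.466 in VO 1 to 3. The order of the libraries was that of S100a8, with VO 1 on top, sham 1 second and VO 3 and sham 2 lowest, so the groups overlapped. The means were 2.54 ± 2.25 FPKM in sham and 12.9 ± 19.4 in VO (SD), and the log2 fold change was 1.43 ± 1.68 (SE, adjusted p = 0.698 by limma). Without VO 1 it was -0.16. Per length, S100a9 was above S100a8 in all 6 libraries, by 1.00-fold in sham 1, where they were nearly level, up to 5.32-fold in VO 3, where the ratio rests on 5 fragments in all.

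Retnlg, a resistin-like secreted protein that marks mature mouse neutrophils, had 0.976, 0 and 0.414 FPKM in sham 1 to 3 and 5.48, 0.310 and 0.513 in VO 1 to 3. VO 1 was again the highest, and the other 2 VO libraries lay within the sham range. The log2 fold change was 1.56 ± 1.24 (SE, adjusted p = 0.573 by limma). Without VO 1 it was 0.40, the only one of the 4 above 0.

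**Figure D1:**
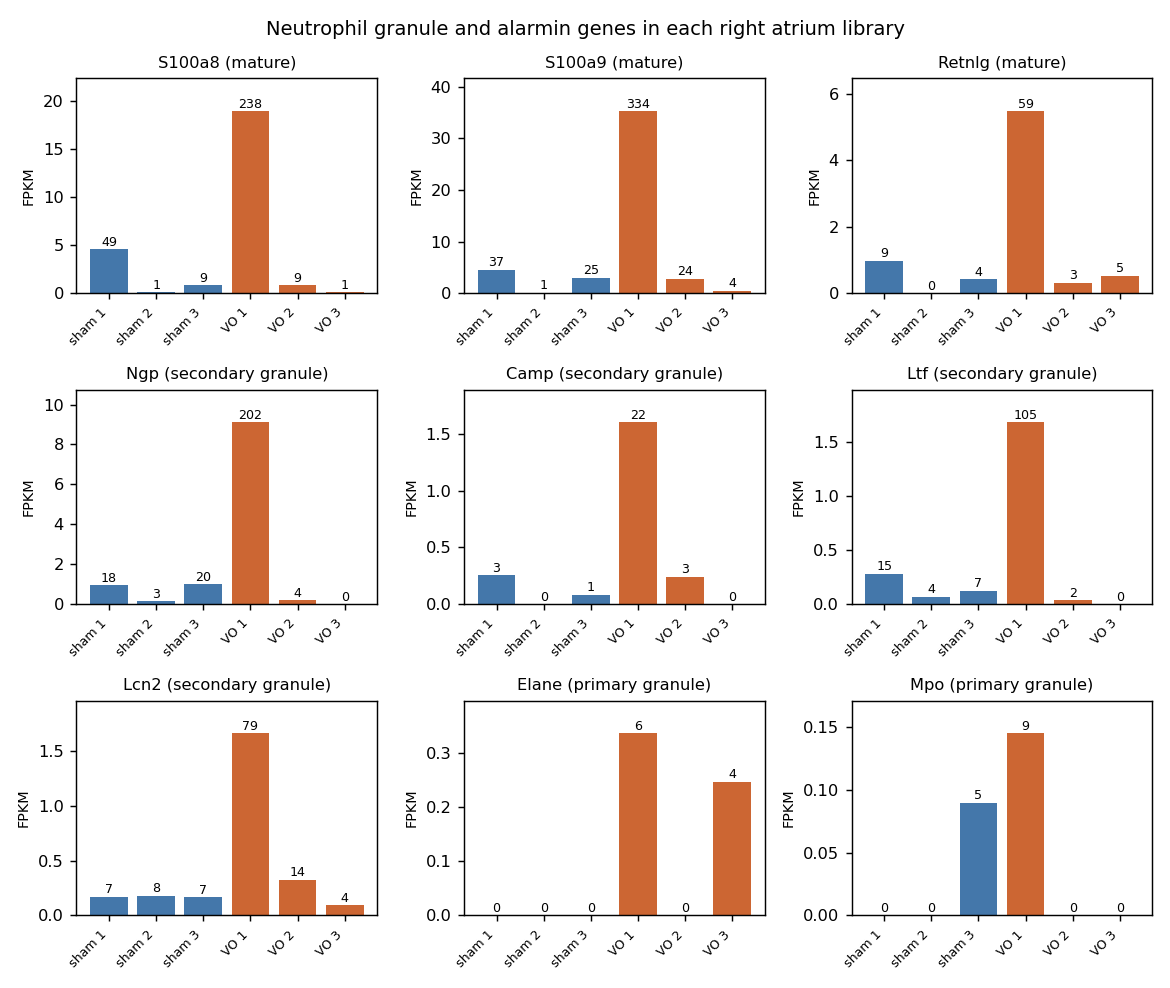
FPKM of each gene (y axis, linear, its own scale in each panel) in the 3 sham libraries (blue bars) and the 3 VO libraries (orange bars), with the number of fragments above each bar. VO 1 is the highest bar in all 9 panels, while VO 2 and VO 3 lie within or below the sham range in S100a8, S100a9, Retnlg and Ngp.

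Ngp, a cystatin-like protein of the secondary granules, had 0.947, 0.142 and 1.01 FPKM in sham 1 to 3 and 9.11, 0.201 and 0 in VO 1 to 3. VO 1 held 202 fragments, against 20 in sham 3, the next library, and 0 in VO 3, so the groups overlapped. The mean was 4.45 times as high in VO as in sham (3.10 ± 5.20 against 0.698 ± 0.482 FPKM, SD). On the log scale, where VO 2 and VO 3 lay low, the log2 fold change was -0.01 ± 1.63 (SE, adjusted p = 0.999 by limma), so mean and fit differed in sign. Without VO 1 it was -1.92.

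The other secondary granule genes stayed under the filter. Ltf, the iron-binding lactoferrin, had 0.279, 0.0673 and 0.125 FPKM in sham 1 to 3 and 1.68, 0.0356 and 0 in VO 1 to 3. VO 1 held 105 of its 133 fragments, and both other VO libraries were below every sham library. Camp, the precursor of the cathelicidin peptide of the mouse, had 0.254, 0 and 0.0810 FPKM in sham 1 to 3 and 1.60, 0.243 and 0 in VO 1 to 3. Apart from the 22 fragments in VO 1, no library held more than 3.

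Lcn2, which binds bacterial siderophores and is known from other cells besides neutrophils, varied little within sham. It had 0.172, 0.177 and 0.164 FPKM in sham 1 to 3 and 1.66, 0.327 and 0.0927 in VO 1 to 3. VO 1 and VO 2 were above the sham libraries and VO 3 was below them. The sham values rested on 7, 8 and 7 fragments, VO 2 on 14 and VO 3 on 4. The exact 95% Poisson intervals of these 5 counts overlapped, and no pair of these libraries was tested for a difference. The exact permutation test over libraries (two-sided) gave p = 0.4 for Lcn2, 0.7 for Camp and 1 for Ltf, where 3 libraries against 3 cannot give less than 0.1.

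The primary granule genes were close to the limit of detection. Elane, the neutrophil elastase of the primary granules, was listed at 0 in the 3 sham libraries and in VO 2, with 0.336 FPKM (6 fragments) in VO 1 and 0.247 FPKM (4 fragments) in VO 3. A count of 0 allows up to 3 fragments as a one-sided 95% limit, or 0.177 to 0.196 FPKM for Elane in the sham libraries. With a sham mean of 0, no ratio of means was formed. In the fit with no filter the log2 fold change of Elane was 1.31 ± 0.55 (SE, limma, unadjusted p = 0.0513, adjusted p = 0.631), on 10 fragments in all. Mpo, the myeloperoxidase of the same granules, had 0.0897 FPKM (5 fragments) in sham 3, 0.145 FPKM (9 fragments) in VO 1 and 0 in the other libraries. For both genes VO 1 was first by a margin within counting error, since its 95% Poisson interval (exact) of 2.20 to 13.1 fragments for Elane and 4.12 to 17.1 for Mpo reached that of the next library. The exact permutation test (two-sided) gave p = 0.4 for Elane and 1 for Mpo.

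In the other 7 genes the 95% interval of VO 1 lay above that of the next library, and VO 1 was 4.16 times (S100a8) to 9.06 times (Ngp) as high as that library. VO 1 was the highest library in 24.8% of all genes above 0 and in 25.4% of the tested genes. Summed over the 9 genes, VO 1 held 1054 of 1364 fragments, or 77.3%. The intervals cover counting error only.

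When the genes were taken by class, the mature and secondary granule classes followed much the same order of libraries and the primary granule class was near 0 throughout. The mature genes summed to 10.1, 0.195 and 4.15 FPKM in sham 1 to 3 and to 59.6, 3.93 and 1.07 in VO 1 to 3. The secondary granule genes summed to 1.65, 0.387 and 1.37 FPKM in sham and to 14.0, 0.806 and 0.0927 in VO. The primary granule genes summed to 0.0897 FPKM at most in sham and to 0.481, 0 and 0.247 FPKM in VO 1 to 3. That was 0.648% of the sum of the 9 genes in VO 1 and 17.6% in VO 3, where the primary sum was above the secondary one on 4 fragments each. The mature sum was 4.25 times the secondary sum in VO 1, inside the range of 3.02 to 6.09 of VO 2, sham 1 and sham 3. In sham 2 and VO 3 the classes rested on 2 to 15 fragments, with ratios of 0.504 and 11.5.

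**Figure D2:**
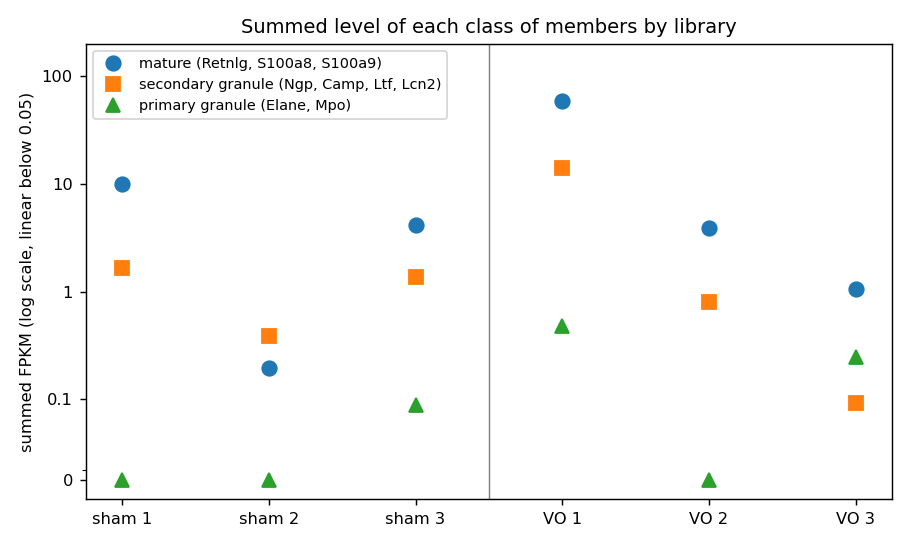
Summed FPKM (y axis, log scale, linear below 0.05) of the mature genes (circles), the secondary granule genes (squares) and the primary granule genes (triangles) in each library (x axis). The mature sum is above the secondary sum in every library except sham 2, and the primary sum is at 0 in sham 1, sham 2 and VO 2.

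In both groups the order of the mean levels per length began with S100a9, S100a8, Ngp, Retnlg and Lcn2. In sham, Ltf, Camp, Mpo and Elane followed, and in VO, Camp, Ltf, Elane and Mpo. For all 8 pairs of neighbours in that order the difference of the means was smaller than the larger of their SDs, in sham as in VO. With VO 1 left out, the mean of VO was above that of sham in 3 of the 9 genes (Camp, Lcn2 and Elane), in place of 9 of 9 with it.

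**Figure D3:**
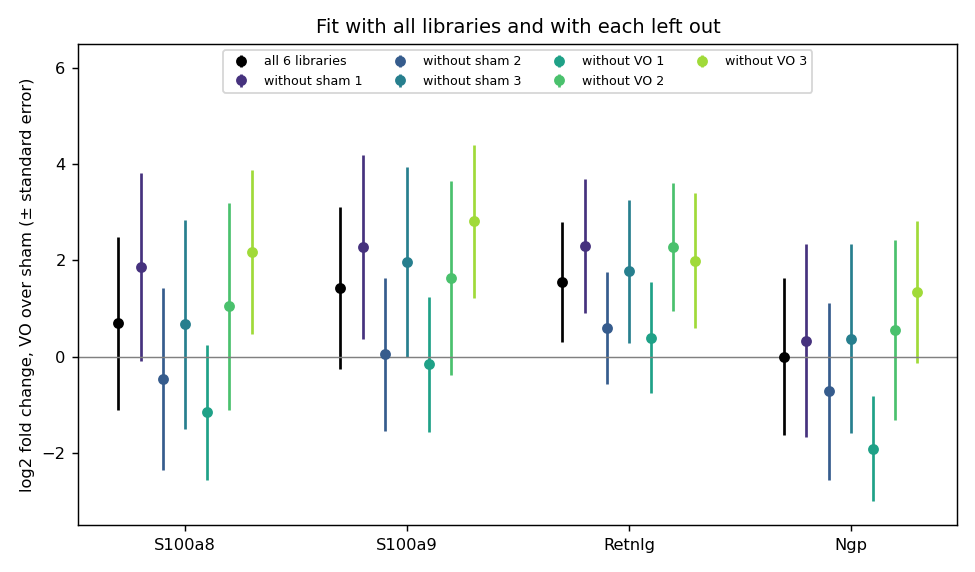
Log2 fold change of VO over sham (y axis, points, with bars for ± 1 standard error) from limma for the 4 tested genes, with all 6 libraries (black) and with each library left out in turn (colours). S100a8, S100a9 and Ngp fall below 0 without VO 1, at -1.16, -0.16 and -1.92, and S100a8 and Ngp also without sham 2.

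Low values were common in sham 2 and VO 3, though not in every gene. Sham 2 or VO 3 was the lowest library (ties included) in all 9 genes, which held for 24.4% of the tested genes and 45.9% of all genes above 0. In Elane and Mpo this came only from ties at 0 with other libraries. Lcn2, by contrast, was highest among the sham libraries in sham 2, at 0.177 FPKM. Retnlg was higher in VO 3 (0.513 FPKM) than in VO 2 (0.310), and Elane was second highest in VO 3. Sham 2 and VO 3 were also the libraries with the Y-linked gene Ddx3y, at 27.3 and 28.3 FPKM, and with Xist under 0.02 FPKM, while the other 4 libraries had Xist at 28.2 to 63.6 FPKM. S100a9 was thus at 0.111 and 0.466 FPKM in the libraries with Ddx3y and at 2.82 to 35.3 FPKM in the libraries with Xist. Each group held a single library with Ddx3y, and the part of sex in these levels was not tested.

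Other genes of the neutrophil were read as lists. Among 5 further promyelocyte and primary granule genes in the table (Prtn3, Ctsg, Prss57, Cebpe and Gfi1), 0 passed the filter. Prtn3, which encodes proteinase 3, had at most 0.281 FPKM, the granule protease gene Prss57 at most 0.0864 and Cebpe, a C/EBP factor of granule genes, at most 0.147. Ctsg, which encodes cathepsin G, was listed at 0 in all 6 libraries. The promyelocyte and primary granule genes were therefore low as a class, with the genes beyond Elane and Mpo included.

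Of 14 further secondary and tertiary granule genes, 12 were highest in VO 1, and 5 were tested. All 5 had a log2 fold change above 0, with a median of 0.87 (-0.01 over all tested genes) and 0.21 without VO 1, and 0 had an unadjusted p under 0.05. Lyz2, the lysozyme of neutrophils and macrophages, had 133, 115 and 106 FPKM in sham 1 to 3 and 485, 126 and 161 in VO 1 to 3. Cybb, a subunit of the phagocyte NADPH oxidase, had 6.15 to 6.80 FPKM in sham and 33.0, 6.85 and 7.98 in VO. Cyba, its partner, had a log2 fold change of 0.07 (limma's adjusted p = 0.911). Within sham, Lyz2 and Cybb varied little, while S100a8 ranged from 0.0836 to 4.54 FPKM. VO 1 was the highest library in all 3.

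Of 24 further genes of the mature neutrophil, 16 were highest in VO 1. Among the 7 that were tested, 6 had a log2 fold change above 0 and 1 a value below 0, with a median of 0.85 (0.18 without VO 1). Il1b, which encodes the cytokine interleukin-1 beta, had 0.303, 0.213 and 0.258 FPKM in sham 1 to 3 and 4.62, 0.836 and 1.56 in VO 1 to 3. It was the single gene of this list with an unadjusted p under 0.05 (limma, unadjusted p = 0.0053, adjusted p = 0.364), which 3.89% of all tested genes reached with a higher value in VO. All 3 VO libraries were above all 3 sham libraries, which held for 8.25% of the tested genes in this direction. The log2 fold change was 2.45 ± 0.62 (SE) and 1.81 without VO 1, where it still had an unadjusted p under 0.05 (2.51% of all tested genes in this direction), and the gene passed the filter only through its VO values. Il1b is also known from macrophages and monocytes.

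Receptors that neutrophils carry were also highest in VO 1 in the examples below. Csf3r, the receptor of the growth factor G-CSF, named here after its values were seen, had 0.997, 0.836 and 0.987 FPKM in sham 1 to 3 and 5.48, 1.19 and 0.977 in VO 1 to 3. Fpr1, a receptor of bacterial formyl peptides, had 2.14, 2.37 and 1.30 FPKM in sham and 14.0, 1.34 and 2.11 in VO. Csf3r and Fpr1 differed little between sham 1 and sham 2. Cxcr2, the chemokine receptor of mature neutrophils, likewise named after its values were seen, had 0.253, 0.0190 and 0.0201 FPKM in sham and 0.615, 0.0201 and 0.0399 in VO, with VO 1 first and sham 1 second as in S100a8. G0s2 and Lrg1, the most abundant genes of the list, are made by many cells and had log2 fold changes of 0.29 and -0.24 (limma's adjusted p = 0.571 and 0.711). The Ly6g antigen, a defining marker of mouse neutrophils, also named after its values were seen, reached 0.234 FPKM in VO 1 and was listed at 0 in 3 libraries.

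Receptors and signalling genes of the alarmins showed no shared direction. Of the 8 tested genes of 10, 5 had values above 0 and 3 below, with a median log2 fold change of 0.14 (-0.16 without VO 1), and 0 had an unadjusted p under 0.05. Bsg, a binding partner of S100a9, had a log2 fold change of -0.34, Cd36, a fatty acid transporter, 0.24 and Myd88, the adaptor of Toll-like receptors, 0.30 (limma's adjusted p = 0.500, 0.487 and 0.474). Of the 16 genes of neutrophil recruitment, 8 were tested, of which 5 had values above 0 and 3 below, with a median of 0.22 (-0.02 without VO 1), and 0 had an unadjusted p under 0.05. Without VO 1, the chemokine gene Cxcl5 and the adhesion gene Vcam1 had an unadjusted p under 0.05 with lower values in VO (log2 fold changes of -1.40 and -0.38, limma's adjusted p = 0.567 and 0.643), as had 4.91% of all tested genes. Vcam1, Icam1 and Ppbp, the 3 most abundant, had log2 fold changes of -0.16, 0.23 and -0.77 (limma's adjusted p = 0.705, 0.609 and 0.730). Cxcl3, Csf3 and Il17a were listed at 0 in all 6 libraries.

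Kin of the 9 genes were read by family, with receptors of Lcn2 and of transferrin. Of 8 other S100 genes, 0 were highest in VO 1, and the 7 tested had a median log2 fold change of 0.06 (0.22 without VO 1). S100a1, the S100 protein of cardiomyocytes, had 235 to 328 FPKM in sham and 160 to 269 in VO, with VO 1 the lowest library. S100a11 and S100a10, which are made by many cell types, had log2 fold changes of 0.19 and 0.06 (limma's adjusted p = 0.627 and 0.919). In the resistin family, Retn and Retnla were highest in VO 3, at 10.1 and 36.3 FPKM, and were listed at 0 in VO 1, where Retnlg was highest. Slc22a17, a receptor of Lcn2, had a log2 fold change of -0.31, and the second lipocalin receptor, Lrp2, was highest in VO 1 at 0.538 FPKM, under the filter. Of the transferrin family, to which Ltf belongs, Trf was highest in VO 1 at 2.71 FPKM. Tfrc, the transferrin receptor and not a member of that family, was lower in all 3 VO libraries than in all 3 sham libraries. Its log2 fold change was -0.40 (limma, unadjusted p = 0.00497, adjusted p = 0.356). In this direction 8.08% of all tested genes had such an unadjusted p under 0.05 and 12.9% showed no overlap. The peroxidase genes Epx and Lpo, kin of Mpo, were under the filter and reached at most 0.246 FPKM, and Epx was highest in VO 1, at 7 fragments.

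Markers of other cells moved in part with the 9 genes. All 7 macrophage markers, with Adgre1, Csf1r and the C1q genes, were highest in VO 1, and their sum was 156 to 227 FPKM in sham and 175 to 444 in VO. The same held for all 5 monocyte markers (23.0 to 33.7 FPKM in sham and 35.0 to 73.5 in VO), all 5 B cell markers (2.15 to 3.34 and 3.41 to 7.92), all 5 T cell markers (0.385 to 0.622 and 0.369 to 2.63) and all 5 genes of proliferation (2.68 to 3.14 and 2.69 to 15.1). Most of the monocyte sum was Fn1, which encodes fibronectin, at 14.8 to 24.7 FPKM in sham and 28.7 to 52.4 in VO. In the monocyte genes Ly6c2, Plac8 and Chil3 the groups overlapped. The macrophage gene Cd68 and, from the monocyte list, the chemokine receptor gene Ccr2 and Fn1 had an unadjusted p under 0.05 and no overlap between groups. In this direction 3.89% of all tested genes had such a p and 8.25% showed no overlap. Adgre1 and Csf1r also showed no overlap, as 3 of the 7 macrophage markers did, at an unadjusted p of 0.0984 and 0.0957 (limma). The log2 fold changes of Cd68, Ccr2 and Fn1 were 0.75, 0.85 and 0.80 (limma's adjusted p = 0.410, 0.404 and 0.407). Without VO 1 these were 0.42, 0.64 and 0.51. None of these markers was at 0 in all libraries, while the monocyte gene Chil3 was listed at 0 in sham 2 and the T cell gene Cd3e in VO 2. In sham 1 to 3, the macrophage sum was 227, 174 and 156 FPKM, where the sum of the 9 genes was 11.7, 0.581 and 5.62. Of the 5 thymocyte markers 0 were highest in VO 1, whose sum of 0.498 FPKM lay inside the sham range of 0.253 to 0.843, and Ptcra was listed at 0 in all libraries but VO 3.

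The sums of red cell and of platelet markers were highest in sham 1 among the sham libraries and in VO 1 among the VO libraries. The red cell genes, mostly globins, summed to 6974, 2383 and 1198 FPKM in sham 1 to 3 and to 8585, 696 and 1035 in VO 1 to 3, and 5 of 6 were highest in VO 1. The platelet genes summed to 117, 24.4 and 32.3 FPKM in sham and to 71.7, 28.4 and 32.0 in VO, though 0 of 5 were highest in VO 1 and Gp1bb was listed at 0 in 4 libraries. VO 1 and sham 1, first and second in S100a8 and S100a9, were thus also the 2 highest libraries in both sums, in the opposite order for platelets. The other libraries did not follow the 9 genes in full, since red cell genes were higher in sham 2 than in sham 3 and both sums were higher in VO 3 than in VO 2. For platelets this rested on Pf4, at 20.4 FPKM in VO 2 and 27.6 in VO 3. Ppbp, Itga2b and Gp9 were higher in VO 2 than in VO 3, as S100a8 and S100a9 were. The mast cell markers (2.45 to 4.57 FPKM in sham and 2.28 to 12.7 in VO) and eosinophil markers (1.45 to 1.91 and 0.920 to 2.99) had their highest sums in VO 3, and Ms4a2 and Ear6 were above 0 in VO 1 alone. The part of blood, of macrophages or of any other cell in the levels of the 9 genes was not tested.

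**Figure D4:**
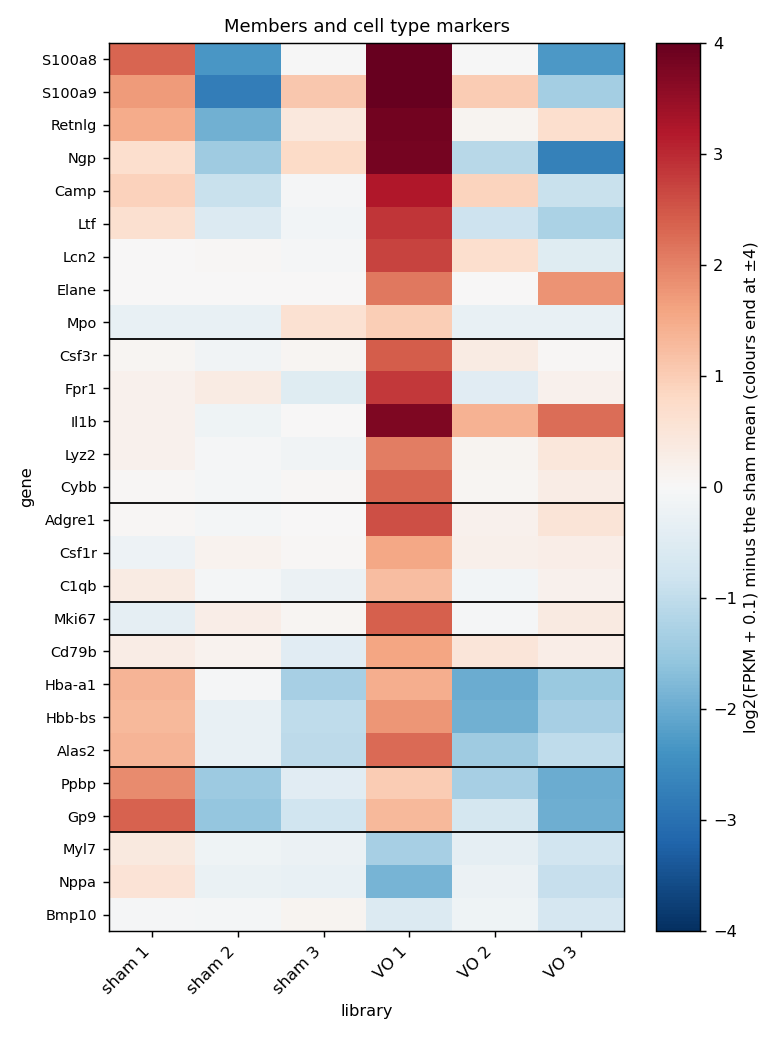
Log2(FPKM + 0.1) minus the mean of the 3 sham libraries (colour, red above and blue below the sham mean, ending at ± 4) for the 9 genes, other neutrophil and phagocyte genes, macrophage genes, Mki67, Cd79b, red cell genes, platelet genes and atrial genes (rows, blocks split by lines) in each library (columns). VO 1 is red in all blocks but the atrial genes, while sham 1 is red in S100a8, S100a9, Retnlg, Ngp and the blood genes and pale in Csf3r, Lyz2 and Adgre1.

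The sum of S100a8 and S100a9 was set against a macrophage gene and a globin gene in each library. Against Adgre1 it was 0.866 in sham 1, 0.0199 in sham 2 and 0.358 in sham 3, and 0.873 in VO 1, 0.311 in VO 2 and 0.0379 in VO 3. VO 1 and sham 1 were level in this ratio, although Adgre1 itself was 62.1 FPKM in VO 1 and 10.5 in sham 1. Against the globin gene Hbb-bs the ratio was 0.00261, 0.000169 and 0.00535 in sham 1 to 3 and 0.0112, 0.00975 and 0.000975 in VO 1 to 3, with VO 1 and VO 2 highest. These ratios and genes were chosen after the values were seen and were not tested.

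The genes whose pattern was most like that of the 4 tested genes were taken by Pearson's r of log2(FPKM + 0.1) over the 6 libraries, as a description with no test. The first 10 were Jak2, Clec14a, Sat1, Ubxn7, Gm48949, Rbm7, Calhm6, Dcaf12, Rufy2 and Ccdc152, with r from 0.965 to 0.987 and Spearman's rho from 0.886 to 1. Without VO 1 their r was 0.896 to 0.976. Jak2, a kinase of cytokine receptors, led the list with a range of 12.3 to 15.5 FPKM, or 1.26-fold, far less than the range of S100a8 or S100a9. Calhm6 had the widest range of the 10, from 0.583 FPKM in sham 2 to 4.99 in VO 1. Over the same libraries r was 0.84 for Csf3r, 0.77 for Adgre1 and 0.72 for Hbb-bs, and without VO 1 it was 0.52, -0.23 and 0.41. For Il1b, Fpr1 and Lyz2, of the neutrophil lists, r was 0.56, 0.70 and 0.76, and -0.23, -0.43 and -0.15 without VO 1. For Itgb2 and Cd14, of the recruitment and alarmin lists, it was 0.78 and 0.86, and -0.03 and 0.48 without VO 1. For the platelet genes Ppbp and Gp9 it was 0.81 and 0.80, and 0.84 and 0.85 without VO 1. Csf3r, Adgre1, Hbb-bs, Gp9, Itgb2, Cd14 and Calhm6 were singled out after their values were seen. All these values share the same 6 libraries and their depth.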

How the data were processed

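RNA of 3 sham and 3 VO RAs was sequenced by the authors in read pairs of 150 bases, aligned with HISAT2 2.0.5 and counted per gene with featureCounts 1.5.0-p3 (versions per the submitters' processing notes, which name GRCm38). The deposited values are FPKM, computed by the authors from gene length and counts. Coordinates matched GENCODE M21 for 98.4% of 54039 shared genes, and 1 incomplete last line was left out. Fragments were recovered because FPKM times length came in whole steps in each library (within 0.01 fragments for 100% of values above 0).

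Median-of-ratios scaling was applied (factors equal in all libraries), and values were filtered to a mean of 1 FPKM and tested as log2(FPKM + 0.1) with limma 3.58.1 in R 4.3.3 (variance trend, two-sided, no covariates, Benjamini-Hochberg adjustment over 12627 genes, threshold 0.05), as checked on simulated data. The simulated libraries varied far less than the real ones did in S100a8 or S100a9, so that check does not cover genes as variable as these. Fold changes on this scale understate those of low genes. Genes under the filter had an exact permutation test, each on its own. The study's DESeq2 test was not repeated. Figures were drawn with matplotlib 3.10.9.

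The 9 genes and the lists were chosen with earlier results of these data known. By rule, all 9 genes were named, with the 3 most abundant genes of each neutrophil, alarmin, recruitment and kin list and genes of these lists with an unadjusted p under 0.05. Alternatives were other pseudocounts, filters and scalings, voom on the recovered fragments, no variance trend, the replicate number as a block and each library left out. Because the scaling factors were equal, the alternative of FPKM as deposited gave the same values as the main fit. Leaving out VO 1 and sham 1 together was chosen after seeing the data.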

Additional observations from a re-analysis of the deposited data

How the results depend on the processing

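Under all 17 alternatives, 0 of the 4 tested genes had an adjusted p under 0.05 and 0 an unadjusted p under 0.05, with adjusted p from 0.421 for Retnlg without VO 2 upwards. The direction of the log2 fold change of Retnlg did not change in any of them. Its mean FPKM did change direction without VO 1, at 0.411 in VO against 0.463 in sham. Retnlg had passed the filter only through VO. Over the fits that each lacked 1 library, the log2 fold change ran from -1.16 (without VO 1) to 2.17 (without VO 3) for S100a8, from -0.16 to 2.82 for S100a9 and from -1.92 to 1.35 for Ngp, in each case between the same libraries. S100a8 was also below 0 without sham 2, at -0.47. Ngp, at -0.01 with a pseudocount of 0.1 and median-of-ratios scaling, was 0.48 with a pseudocount of 1, -0.98 with 0.01, 0.024 with quantile normalization and -0.43 with voom, and the cause was not tested. Retnlg was 0.73 and 2.59 with pseudocounts of 1 and 0.01. With TPM the median over all tested genes moved from -0.01 to 0.13 on the log2 scale, and S100a8 was at 0.84, S100a9 at 1.69, Retnlg at 2.13 and Ngp at -0.26. Without VO 1 and sham 1 together, S100a8 was at 0.015, S100a9 at 0.68, Retnlg at 1.14 and Ngp at -1.58. With the replicate block 0 genes of the 4 were called and Retnlg was at 1.56 with an adjusted p of 0.601. The numbers share no stated litter or day, and deviations of same-numbered libraries had correlations of -0.108, 0.0112 and -0.0292. In the 250 bases before the start alone, TATAAA was found for 1 gene, S100a8. Without a filter all 9 genes were fitted, with 0 called and the lowest adjusted p at 0.631 for Elane, which was seen in 10 fragments in all. Most of these genes rest on few fragments outside VO 1, and the standard errors of 1.24 to 1.80 on the log2 scale bound what 3 libraries per group could show.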
